A study of Rattus norvegicus with 8 samples.

Results

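The genes of the proteasome were examined on 8 one-colour Affymetrix arrays of granulosa cells from rat ovarian follicles, where these cells line the follicle and nurse the oocyte. A gene was taken when a probe set was annotated to it alone and its symbol began with Psma, Psmb, Psmc or Psmd and a digit. This took 37 of 14217 named genes, through 48 probe sets. Of the 37, 30 were constitutive subunits and 3 were the immunoproteasome subunits Psmb8, Psmb9 and Psmb10. Another 3, Psmd5, Psmd9 and Psmd10, are assembly chaperones of the regulatory particle. Psmc3ip was taken by the letters of its symbol only, since it encodes a recombination factor, and is given apart. The testis subunit Psma8 and the thymus subunit Psmb11 were not found on any probe set naming 1 gene. A probe set shared by Psmb6 and Psmb6l1 and another shared by Psma3 and Psma3l named more than 1 gene and were left out of the members.

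The design text describes immature rats primed with eCG, a gonadotropin that makes follicles grow. After 24 h they were given pre-immune serum, under which follicles go on developing, or an anti-eCG antibody, which drives them into atresia. All animals thus carried eCG treatment. Strain, exact age and the number of animals per array are not given in the sources used here. Since a number was all that told 1 array label from another, no array could be placed in either group, and no test between treatments was made. Arrays are named by that number, and values per array are listed as 2074, 2076, 2194, 2195, 2196, 2197, 2198 and 2199. Signals are MAS5 values on a linear scale, scaled between arrays, and are not compared between probe sets. The spread of a gene is its inner range, the signal on the second highest array over that on the second lowest, so that 1 extreme array at either end does not set it.

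The proteasome degrades proteins that carry ubiquitin chains. Its core particle is a stack of alpha rings, which form the gate, around beta rings, where Psmb6, Psmb7 and Psmb5 hold the active sites at the positions called beta1, beta2 and beta5. A regulatory particle sits on the gate, with a ring of ATPases that unfold the substrate and non-ATPase subunits that bind and remove ubiquitin. Interferon gamma induces Psmb9, Psmb10 and Psmb8, which take the places of Psmb6, Psmb7 and Psmb5 in newly built cores and give the immunoproteasome, known for cutting peptides for antigen presentation.

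Constitutive subunits were bright and, over all 8 arrays, all but 1 varied less than 2-fold, whereas each immunoproteasome subunit varied at least 2-fold. All 30 constitutive genes lay above the array's median on all 8 arrays, with median signals from 2917 for Psmd8 to 59369 for Psma6. Their median inner range was 1.49-fold, against 1.71-fold over the 10483 measured genes and 1.53-fold over the 3530 measured genes whose mean signal lay within that of the constitutive subunits. Only Psmd4 reached 2-fold, 1 of the 30 or 3.33%, against 29.8% of measured genes and 17.8% of the 3530. All 3 immunoproteasome genes reached it, Psmb9 at 3.27-fold, Psmb8 at 2.43-fold and Psmb10 at 2.33-fold. Over arrays 2194 to 2199 alone only Psmb9 did, at 2.89-fold, with Psmb8 at 1.25-fold and Psmb10 at 1.36-fold, and 0 of the 30 constitutive genes did. Psmb9, Psmb8 and Psmb10 were dimmer on their probe sets, with median signals of 633, 1359 and 1589. With 8 arrays and no groups these are descriptions of spread, and 3 genes are too few to set against a share of all genes.

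**Figure D1:**
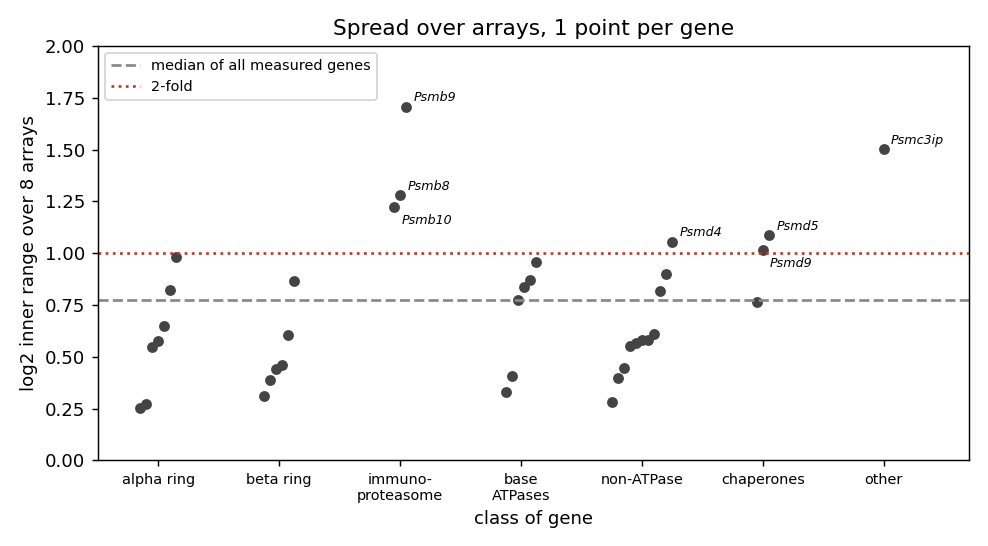
Log2 inner range over 8 arrays (vertical axis) of each of the 37 genes (points), by class (horizontal axis), with the median of all measured genes (dashed) and the 2-fold line (dotted). All 3 immunoproteasome genes lie above 2-fold, and of the constitutive classes only Psmd4 does.

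Arrays 2074 and 2076 stood apart from the other 6 in part of the genes. In 14.5% of all measured genes both lay below the other 6 arrays and in 13.7% both lay above. These shares were not taken for other pairs. Array 2195 was the highest array for 23.6% of measured genes, against 14.2% for array 2074 and 12.1% for array 2076. The 3' to 5' signal ratio of the actin control probe sets was highest on arrays 2074 and 2076, 11.0 and 12.1 against 4.67 to 8.08 on the other 6. That of the Gapdh controls was 6.66 and 6.07, inside the 5.27 to 8.81 of the others. Of 9 granulosa markers 8 were measured, among them Inha with 26724 to 90530 and Foxl2 with 3572 to 10432, while Amh was dim at 242 to 1057. Inha and Foxl2 were the only 2 with arrays 2074 and 2076 both above the other 6. Cyp19a1 and Inhba were lowest on array 2076, at 987 and 19181. The haemoglobin gene Hbb, a red cell marker, gave 45704 on array 2074 and 3709 to 12573 on the other 7. Fewer cells of a type and less RNA per cell cannot be told apart in such bulk samples. Some results that rest on arrays 2074 and 2076 are therefore also given over arrays 2194 to 2199 alone, where 12.0% of 10059 measured genes reached 2-fold. Where neither these arrays nor a left-out array is named, a range covers all 8 arrays and can rest on the pair.

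The immunoproteasome genes come first, with the start of each gene as RefSeq places it in the GRCr8 assembly, 250 bases before to 50 after the start, on the gene's own strand. These windows are shown because the 3 genes are known to answer interferon, and because the constitutive Psmb5 is the counterpart of Psmb8. Psmb8 is at chr20:4656982-4657281 (minus strand), Psmb9 at chr20:4668750-4669049 (plus strand), Psmb10 at chr19:50743243-50743542 (minus strand) and Psmb5 at chr15:32047330-32047629 (minus strand). Capitals mark matches, on either strand, to GAAA, any 2 bases and GAAA again (interferon response), TTCNNNGAA (the GAS element bound by STAT factors), TGACNNNGC (antioxidant response) or CCAAT.
Psmb8: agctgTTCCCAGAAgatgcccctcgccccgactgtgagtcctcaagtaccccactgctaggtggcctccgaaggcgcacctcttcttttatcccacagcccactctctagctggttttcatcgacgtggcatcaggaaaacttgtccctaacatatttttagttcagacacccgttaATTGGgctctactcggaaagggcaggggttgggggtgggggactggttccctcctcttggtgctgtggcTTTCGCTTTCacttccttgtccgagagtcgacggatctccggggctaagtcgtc
Psmb9: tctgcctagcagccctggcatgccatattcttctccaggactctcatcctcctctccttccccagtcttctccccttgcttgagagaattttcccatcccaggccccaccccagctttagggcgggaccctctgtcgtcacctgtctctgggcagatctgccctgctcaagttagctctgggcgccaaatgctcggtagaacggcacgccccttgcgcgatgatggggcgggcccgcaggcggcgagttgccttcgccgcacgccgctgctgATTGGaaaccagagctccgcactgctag
Psmb10: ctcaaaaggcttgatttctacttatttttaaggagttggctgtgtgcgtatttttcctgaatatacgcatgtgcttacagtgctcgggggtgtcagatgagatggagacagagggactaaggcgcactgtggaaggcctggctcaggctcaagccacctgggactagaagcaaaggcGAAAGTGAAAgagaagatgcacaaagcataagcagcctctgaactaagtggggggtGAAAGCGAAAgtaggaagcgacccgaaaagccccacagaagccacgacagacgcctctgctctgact
Psmb5: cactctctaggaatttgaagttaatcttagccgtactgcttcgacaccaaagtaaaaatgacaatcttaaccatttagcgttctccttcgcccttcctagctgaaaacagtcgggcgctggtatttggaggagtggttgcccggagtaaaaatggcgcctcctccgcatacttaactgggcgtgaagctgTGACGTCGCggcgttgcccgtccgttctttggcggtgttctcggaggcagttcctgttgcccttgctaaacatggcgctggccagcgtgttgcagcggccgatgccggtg

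The interferon response motif was found in 2 of the 3 immunoproteasome windows, from 4 bases before the start in Psmb8 and from 73 and 17 bases before it in Psmb10. It was found in 3 of the 26 constitutive genes with a window, Psma4, Psmb3 and Psmd7, and in 3.77% of all 27457 windows. In Psmb9 these letters were not in the window. The gene next to Psmb9, Tap1, is read in the opposite direction from a start 457 bases away and had the motif in its own window. The antioxidant response motif TGACNNNGC, the type of site that the proteasome regulators Nfe2l1 and Nfe2l2 bind, was found in 5 constitutive windows, Psma3, Psmb2, Psmb5, Psmd1 and Psmd3, and in 0 of 3 immunoproteasome windows, against 12.2% of all windows. The GAS motif TTCNNNGAA was found in Psmb8 and in 3 constitutive windows, among them Psmd3 with 3 matches, against 8.68% of all windows. CCAAT was found in 14 of the 26 constitutive windows (53.8%) and in 37.7% of all windows. These are matches of letters and no evidence of binding.

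Psmb8, the immunoproteasome subunit of the beta5 position, gave 4095, 2660.3, 1323, 1395, 732, 1096, 1416 and 1240.3. Arrays 2074 and 2076 were the highest and did not overlap the other 6, and array 2196 was the lowest. The full range was 5.60-fold. The inner range of 2.43-fold rested on that pair of arrays, since it was 1.28-fold without array 2074 or array 2076 and 1.25-fold over arrays 2194 to 2199.

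Psmb10, the subunit of the beta2 position, gave 3148, 2971, 1086, 1450.4, 1274, 1857, 1728 and 1419.7. Arrays 2074 and 2076 were again above all others without overlap. The inner range of 2.33-fold fell to 1.46-fold when either of them was left out, and it was 1.36-fold over arrays 2194 to 2199. Psmb8 and Psmb10 therefore gave the same arrays at the top but not at the bottom, which was array 2196 for Psmb8 and 2194 for Psmb10.

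Psmb9, the subunit of the beta1 position, behaved otherwise and gave 1056, 639.6, 492, 1190.3, 156, 323, 942 and 627. Its highest array was 2195, array 2076 lay in the middle, and arrays 2196 and 2197 were lowest. The value on array 2196 was under the floor for low signals there, 297, and in the floored values the full range was at least 4.01-fold. The inner range was 3.27-fold over all arrays, 2.14-fold without array 2196 or 2197 and 2.89-fold over arrays 2194 to 2199. It was thus past 2-fold in each of these, but low signal limits it. The second lowest value, 323 on array 2197, lay near the floor there, 272.5. Array 2195, the highest here, was the highest array for 23.6% of all measured genes.

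Of the constitutive counterparts, neither Psmb5 nor Psmb7 had both arrays 2074 and 2076 above the others. Psmb5 gave 34429, 37863, 41045, 56659.8, 50137, 49628, 52035 and 40032, so that arrays 2074 and 2076 were its 2 lowest, and its inner range was 1.37-fold. Its log2 distance from its median, subtracted from that of Psmb8, was 1.98 on array 2074, 1.22 on array 2076 and between -1.04 and 0.10 on the other 6 arrays. Psmb7 gave 16603, 14896, 16364, 11509.9, 12519.5, 14702, 15799 and 14496, with an inner range of 1.31-fold. Array 2074 was its highest, next to array 2194, and array 2076 lay in the middle. The same difference for Psmb10 and Psmb7 was 0.83 and 0.90 on arrays 2074 and 2076 and between -0.69 and 0.24 on the other 6. For the beta1 position only the probe set shared by Psmb6 and its copy Psmb6l1 was at hand. It gave 5022, 3923, 1595, 2636, 2574, 2843, 3018 and 2792. Arrays 2074 and 2076 were its highest without overlap, as in Psmb8 and Psmb10 but not in Psmb9. This probe set cannot tell Psmb6 from Psmb6l1.

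**Figure D2:**
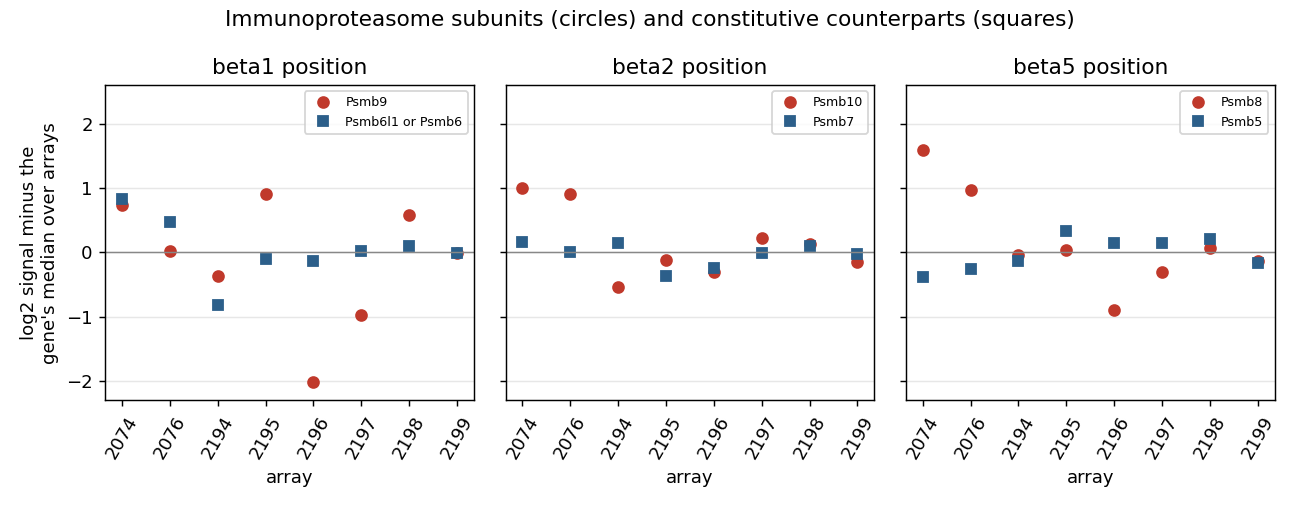
Log2 signal minus the gene's own median over arrays (vertical axis) on each of 8 arrays (horizontal axis) for Psmb9, Psmb10 and Psmb8 (circles) and their counterparts (squares, for beta1 the probe set shared by Psmb6l1 and Psmb6). Psmb8 and Psmb10 are highest on arrays 2074 and 2076, Psmb5 is lowest there, and Psmb9 is lowest on array 2196, at 156.

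As a score, the mean log2 distance of members from their medians, the 3 immunoproteasome genes gave 1.11, 0.63, -0.31, 0.27, -0.77, -0.35, 0.25 and -0.10. The 30 constitutive genes gave 0.09, 0.12, 0.01, -0.13, 0.00, -0.02, 0.05 and -0.15. The immunoproteasome score thus ran over a full range of 1.87 and an inner range of 0.98, and the constitutive score over 0.28 and 0.21. Of the 2, the constitutive score averages 10 times as many genes. The difference between the scores was highest on array 2074, at 1.02, and lowest on array 2196, at -0.77, with an inner range of 0.84, and of 0.73 without array 2074. The immunoproteasome inner range was 0.61 without array 2074 and 0.62 without array 2076, and that of the constitutive genes was 0.08 without array 2195 and 0.10 without array 2199.

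Markers of blood cells did not all follow the immunoproteasome. The erythroid score, over Hbb and Alas2, was highest on array 2074, at 2.597, as was that of the immunoproteasome, but it was 0.51 on array 2076 and 0.35 on array 2196, where the immunoproteasome score was lowest. Leukocyte markers were weak, with 6 of 12 measured. The pan-leukocyte gene Ptprc and the B cell gene Cd79b were under the floor on all 8 arrays and the T cell gene Cd3e on 7. The leukocyte score was -0.48 and -0.63 on arrays 2074 and 2076, from a range of -0.64 to 0.25 over all arrays, so it was low where the immunoproteasome score was highest. Its 6 genes were not alike there. Only 1, Csf1r, had both arrays below the other 6, with 179 and 526 against 871 to 1891. Lyz2 was highest on array 2074, at 5460, and 4 of the 6 genes had values under the floor. The granulosa score, in contrast, had its extremes on the same arrays as the immunoproteasome score, 0.45 on array 2074 and -0.63 on array 2196, though it was -0.32 on array 2076. The part of red cells or of granulosa cell content in the immunoproteasome values was not tested. Without array 2074, Psmb9 kept an inner range of 2.89-fold and Psmb8 had 1.28-fold.

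**Figure D3:**
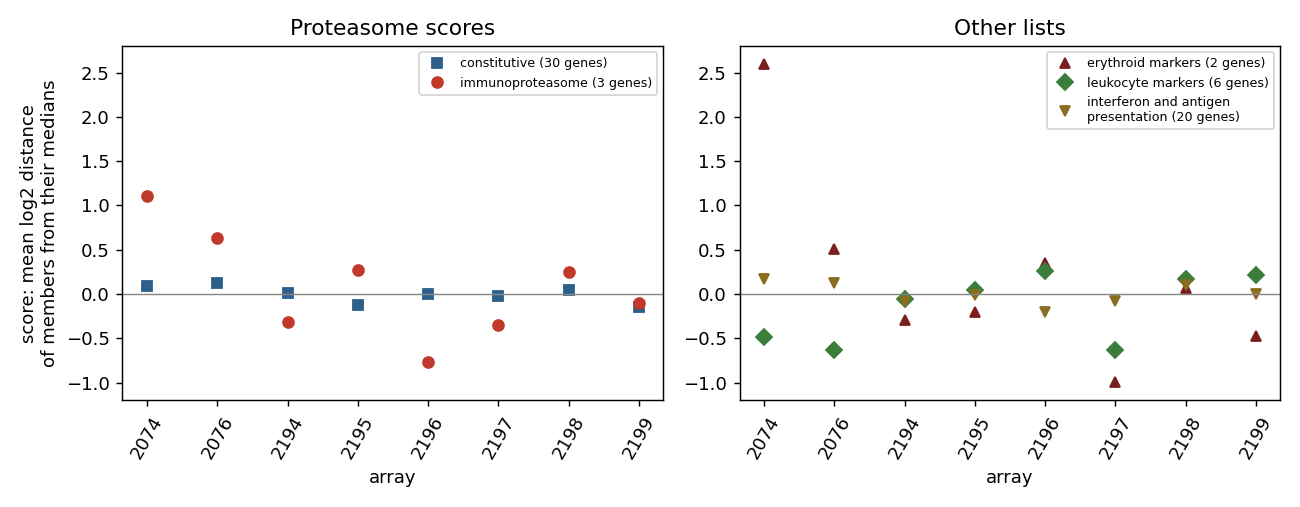
Score on each of 8 arrays (horizontal axis), the mean log2 distance of a list's measured members from their medians (vertical axis). Left, 30 constitutive and 3 immunoproteasome genes, and right, erythroid markers, leukocyte markers and the interferon and antigen presentation list. The immunoproteasome points run from -0.77 to 1.11 and the constitutive ones from -0.15 to 0.12.

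The alpha ring, which holds the gate of the core, was measured for all 7 genes, with inner ranges from 1.19 to 1.98-fold. Psma7 gave 36488, 32056, 17771, 11047, 21641, 22542, 19563 and 16210.3. Arrays 2074 and 2076 were its highest without overlap, and array 2195 was the lowest. Its inner range was 1.98-fold, 1.39-fold without array 2074 or 2076 and 1.33-fold over arrays 2194 to 2199. Psma5 gave 8934 to 19720.3 (median 13622), also with arrays 2074 and 2076 on top and an inner range of 1.57-fold. Psma3 had 1.77-fold, from 1878 on array 2076 to 4068 on array 2194. The brighter probe set that Psma3 shares with Psma3l had only 1.20-fold, from 16064 to 22042, so the value of Psma3 depended on the probe set. Psma6 had the narrowest inner range of all 37 genes, 1.19-fold, with 42449.8 on array 2074 and 52128 to 62316 on the other 7. Psma4 had 1.21-fold, Psma1 1.46-fold and Psma2 1.49-fold.

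The beta ring had 6 constitutive genes measured, with inner ranges from 1.24 to 1.82-fold. Psmb2 was the widest, from 3349.9 on array 2197 to 10192 on array 2074 (median 7149). Arrays 2074 and 2076 were above the others, but array 2198, at 8925, came close to the 9289.7 of array 2076. Psmb3 followed at 1.52-fold, with 8053 and 8045 on arrays 2074 and 2076 against 5099.9 to 7616 elsewhere. Psmb4, a subunit without an active site, was narrowest at 1.24-fold, from 42396 to 60093 around 51072. Psmb1, also without an active site, had 1.36-fold, from 5738 on array 2199 to 9495.

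The ATPases of the regulatory particle had the widest inner ranges of the constitutive classes, with a median of 1.75-fold over 6 genes, and in 4 of the 6 arrays 2074 and 2076 both lay above the other 6. Psmc1 gave 15100.5, 13961, 10172, 8837, 7187, 8172, 9341 and 6218, an inner range of 1.94-fold. Psmc5 gave 8438 and 9418 on that pair against 4003 to 6809.6 elsewhere (1.83-fold), and Psmc3 gave 11043 and 12890.2 against 5087 to 8011 (1.71-fold). Psmc4 gave 8323 and 10922 against 6261 to 8095 (1.33-fold), a small step from 8095 to 8323. Psmc6 ran from 6501 on array 2074 to 13167 on array 2197 on its brightest probe set (1.78-fold), and array 2076, at 7587, overlapped the other 6. All 3 of its probe sets had array 2197 highest, and their inner ranges were 1.78, 2.04 and 1.73-fold. Psmc2 was narrowest at 1.26-fold, from 35785 to 50812. The ATPases work as 1 ring of 6 different subunits, and their score ran from -0.20 on array 2198 to 0.38 on array 2076.

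Among the 11 non-ATPase subunits Psmd4, a receptor for ubiquitin chains, was the only one past 2-fold. It gave 9418, 9291, 5087, 6109, 4927, 4469, 4990.5 and 4026, with arrays 2074 and 2076 well above the other 6. Its inner range was 2.08-fold, 1.36-fold without array 2074 or 2076, 1.89-fold without array 2197, 1.88-fold without array 2199 and 1.14-fold over arrays 2194 to 2199. Psmd8 had 1.86-fold, from 1839 to 3899. Psmd6 had 1.76-fold, with 4018 on array 2195, 6183 on array 2197, and the remaining 6 between 8642 and 12456. Psmd2, the large scaffold of the base, gave 25383 and 31805 on arrays 2074 and 2076 against 15838 to 20625 elsewhere (1.49-fold). Psmd1, the other large scaffold, had 1.32-fold, and Psmd13 was narrowest at 1.21-fold. Psmd3 and Psmd12, subunits of the lid, had 1.36 and 1.53-fold.

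In 3 non-ATPase genes the probe sets did not place arrays 2074 and 2076 alike. The brighter probe set of Psmd7 gave 8915 and 9607 there, all below the 12708 to 16208 of the remaining arrays, and its next gave 6242 and 6708 against 3074 to 5922. The brightest probe set of Psmd11 gave 17766 and 14239.9 against 16909 to 24837, an overlap, and its next 11404 and 11022 against 5287 to 9859. For Psmd14, the enzyme that cuts ubiquitin off the substrate, these were 10078 and 12336 against 14599.6 to 23817, and on its next probe set 4487 and 3592 against 1101 to 3698, an overlap for array 2076. The direction of these 3 genes on arrays 2074 and 2076 therefore cannot be read from either probe set alone. Of the 37 genes, 30 had a single probe set, so no such check was at hand for them. The additional probe sets of Psmb5 and Psmc4 lay near or under the floor and gave no check.

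Over all constitutive genes, arrays 2074 and 2076 both lay above the other 6 in 11 of 30 (36.7%), against 13.7% of all measured genes and 18.4% of measured genes of like signal. Both lay below in 5 of 30 (16.7%), which were Psma6, Psmb5, Psmd7, Psmd12 and Psmd14, against 14.5% and 23.3%. The 11 were Psma5, Psma7, Psmb2, Psmb3, Psmc1, Psmc3, Psmc4, Psmc5, Psmd2, Psmd3 and Psmd4. When probe sets of a gene were averaged, the counts were 2 below and 10 above. Psmb5 and Psmc4 were among the genes that dropped out, and their averages took in probe sets near or under the floor. On arrays 2074 and 2076 19 of the 30 genes lay above their own median, against 46.3% and 45.3% of all measured genes, and on array 2199 it was 8, against 47.8%. Array 2199 was the lowest array in 8 of the 30 and the highest in 0, against 12.4% and 10.5% of all measured genes. The constitutive genes thus did not move as a block on arrays 2074 and 2076, and their median log2 deviation was 0.12 on array 2074 and 0.065 on array 2076. Whether the actin control ratio, highest on the same arrays, has a part in this was not tested.

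**Figure D4:**
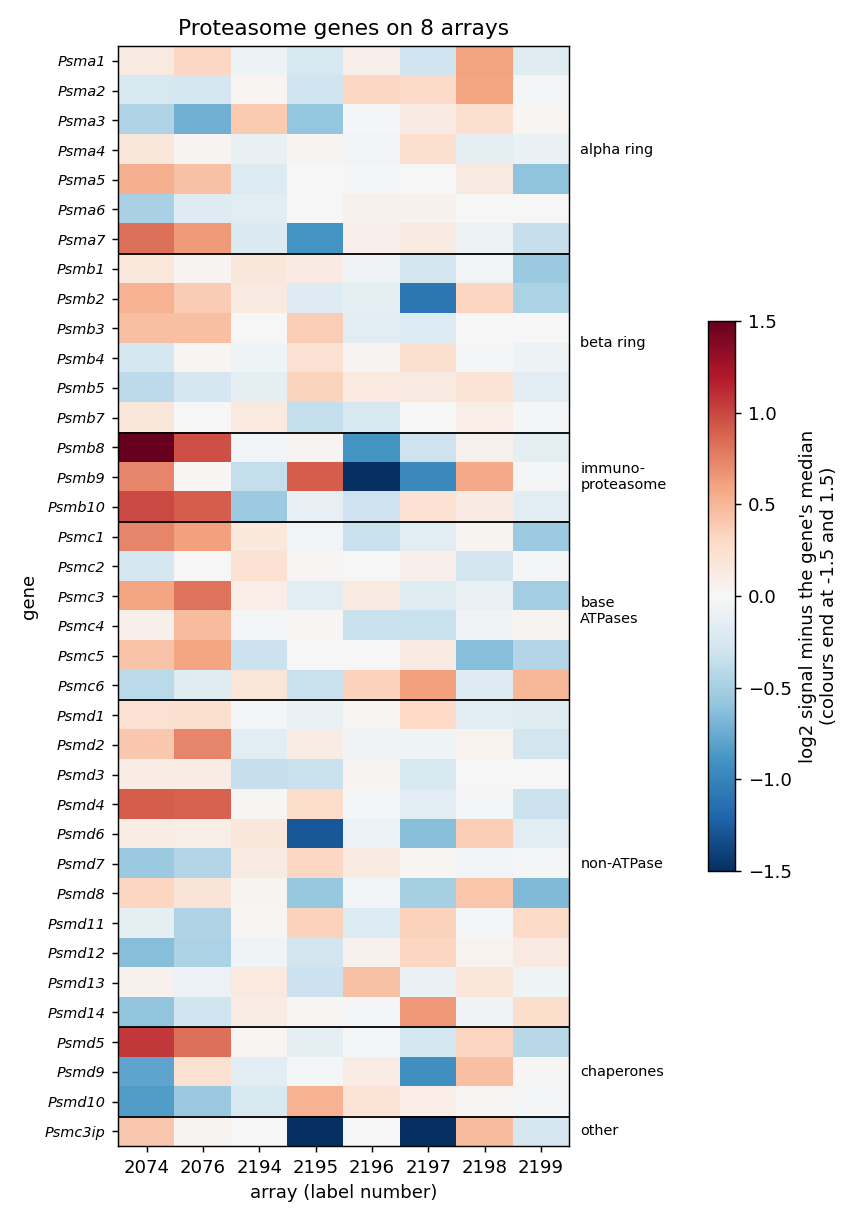
Log2 signal minus the gene's median over arrays (colour) for the 37 genes (vertical axis, grouped by class) on 8 arrays (horizontal axis). Psmb8, Psmb10, Psmd4 and Psmd5 are red on arrays 2074 and 2076, while Psma6, Psmb5, Psmd7, Psmd12, Psmd14 and Psmd10 are blue there.

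Over all 8 arrays the assembly chaperones taken by the symbol varied more than most subunits. Over arrays 2194 to 2199 they did not. There Psmd5, Psmd9 and Psmd10 had 1.22, 1.19 and 1.17-fold, against a median of 1.24-fold over the 30 constitutive genes. Psmd5, which holds ATPases for assembly, gave 8696, 7415, 4256, 3783, 4114, 3495, 5251 and 3133, highest on arrays 2074 and 2076 without overlap. Its inner range was 2.12-fold, 1.49-fold without either of these arrays and 1.22-fold over arrays 2194 to 2199. Psmd10, also called gankyrin, went the other way, with 3488 and 4261 on that pair against 5292 to 8944 elsewhere (1.70-fold). Psmd9 had 2.02-fold, with 1032 on array 2074, 940.03 on array 2197, and the remaining 6 between 1602 and 2426, and 1.30-fold without either of those arrays. The other probe set of Psmd9, also above the median on all 8 arrays, had 1.79-fold. Psmc3ip, no part of the proteasome, had at least 2.83-fold, with 181 on array 2195, 335 on array 2197, and the remaining 6 between 848 and 1406, and 1.56 to 1.57-fold without array 2195 or 2197.

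Of 25 listed regulators and assembly factors, which include these 3 chaperones, 23 were measured. Of the 23, 4 reached 2-fold (17.4%), against 29.8% of measured genes and 17.8% of those within the signal range of the constitutive subunits. These were Ngly1 (2.21-fold), an enzyme that prepares the transcription factor Nfe2l1 for activation, Psmd5, Psmd9 and the protease Ddi2 (2.02-fold), which cuts Nfe2l1. Ngly1 gave 4781 and 4401 on arrays 2074 and 2076 against 6355 to 10724 elsewhere. Ddi2 was highest on array 2195, at 1589, and lowest on array 2197, at 496. Nfe2l1 itself had 1.32-fold, from 1544 on array 2196 to 3202 on array 2195, and Nfe2l2 1.45-fold, from 9344 to 14186. Pomp, the chaperone that completes new cores, had 1.31-fold, from 9759 on array 2196 to 14367. Psmg2 was narrowest at 1.18-fold. The interferon-induced activator subunits Psme1 and Psme2, which cap the core, had 1.34 and 1.57-fold. With probe sets averaged Psme1 had 1.64-fold. Psme2 gave 10021, 7552, 5766, 7579, 4373, 8272, 6086 and 9037. It was lowest on array 2196 and highest on array 2074, as Psmb8 was, but array 2076 lay in the middle. The number at 2-fold was 1 without array 2074 or 2197, 0 without 2076, 2 without 2199 and 0 over arrays 2194 to 2199.

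Of 30 listed ubiquitin pathway genes 24 were measured. Of the 24, 4 reached 2-fold (16.7%), against 29.8% of measured genes and 17.8% of those within the signal range of the constitutive subunits. Stub1, a ubiquitin ligase that works with chaperones, gave 8135, 10390.5, 3419, 3558, 3982, 2960.4, 2812 and 1797, with arrays 2074 and 2076 far above the rest (2.89-fold, and 1.42-fold without either). Vcp, the ATPase that pulls ubiquitinated proteins out of complexes, gave 27909 and 25819.9 on that pair against 7495 to 15668 elsewhere (2.41-fold, and 1.45-fold without either). Ube2d2, a ubiquitin-conjugating enzyme, had 2.36-fold, from 3335 on array 2195 to 9435 on array 2197, but 1.48-fold when its probe sets were averaged. The deubiquitinase Uchl1 was just past 2-fold, at 2.003. Nploc4, which works with Vcp, had 1.15-fold on its brightest probe set and 1.52-fold when its probe sets were averaged. The number at 2-fold was 1 without array 2074, 2076, 2197 or 2199 and 0 over arrays 2194 to 2199.

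Of 27 listed interferon and antigen presentation genes 20 were measured, and 5 of the 20 reached 2-fold, against the 29.8% of all measured genes. Tapbp, which helps load peptides, gave 1396, 897, 753, 68.9, 153, 1068, 2172 and 1816, with arrays 2195 and 2196 under the floor (at least 3.86-fold, and at least 2.40-fold without array 2195 and 2.41-fold without 2196). Irf2 (at least 3.25-fold) and Ciita (at least 2.35-fold) were under the floor on 3 and 4 arrays, and their order over arrays cannot be read. Irf2 had 1.89-fold without array 2195 and 1.86-fold without 2198, and Ciita 1.40-fold without 2198. With probe sets averaged Irf2 had 1.77-fold and Ciita 1.81-fold. The kinase Jak2 (at least 2.32-fold) and the interferon gamma receptor Ifngr1 complete the 5. Ifngr1 gave 6800.02 and 6836 on arrays 2074 and 2076 against 2189.7 to 4214 elsewhere (2.03-fold). Tap1, the peptide transporter read away from Psmb9, was not measured, with signals of 35.8 to 598 and 4 arrays under the floor. B2m, the light chain of class I molecules, gave 8239.6, 9665, 5771, 6506, 4814, 4907, 6596 and 4545, highest on arrays 2074 and 2076 like Psmb8 and Psmb10 (1.71-fold). Irf1, a transcription factor of the immunoproteasome genes, did not follow them, with 1134 and 778 on that pair inside the 672 to 1457 of the others. Pdia3 was narrowest at 1.26-fold. The list's score was highest on array 2074, at 0.17, and lowest on array 2196, at -0.21, the same arrays as for the immunoproteasome score. The number at 2-fold was 3 without array 2195 or 2197, 2 without 2198 and 3 over arrays 2194 to 2199.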

How the data were processed

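Each sample was total RNA of granulosa cells on an array of its own. The deposited values are linear signal intensity of 31099 probe sets. The submitters' processing notes name MAS5 (version not given in the sources used here). A mean that leaves out the top and bottom 2% of probe sets came to 1500.5 to 1500.6 per array, so arrays had been scaled before deposit. MAS5 is noisy at low signal, and detection calls were not used here. The number of arrays limits the precision.

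Signals were turned into log2 and arrays were brought to 1 median, taken over probe sets that passed the array median 8 times of 8. Values under the array's 40th percentile (signals of 273 to 471) were set to it, the floor. Signals are printed before the floor and ranges taken after it; where the floor set the second lowest value the range is given as "at least". Each gene was read from its brightest probe set and called measured when it passed the array median on 2 or more arrays. Probe sets with several genes (436) were left out. Symbols came from the platform annotation, which can be old, and were checked by gene identifier against RefSeq's GRCr8 table, which changed 0. Windows at gene starts came from RefSeq, for 33 of the 37 genes. Computation used Python 3.11.15, numpy 2.4.6 and pandas 2.3.3, and the inner range was tested on simulated data.

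The members and lists were chosen with earlier results of these data known. Given in full are the immunoproteasome genes and their counterparts and, in each class or list, the 3 widest and the 1 narrowest gene by inner range, with Tap1, Psme1, Psme2, Pomp, Nfe2l1 and Nfe2l2. Named after their values were seen, to complete a count, an array pattern or a class, were Psmd9, Uchl1, Jak2, Ifngr1, B2m, Irf1, the cell type markers and the subunits outside that rule. All arrays stayed without a group. Alternatives were no scaling, quantile normalization, other floors and filters, averaged probe sets, the full range, medians in place of mean scores, arrays 2194 to 2199 and leaving out each array in turn.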

Additional observations from a re-analysis of the deposited data

Results flagged for a closer look

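Of 99 series of values (the 37 members, the measured genes of the other lists that were never under the floor, and 7 scores), 2 had an array far from the other 7 by Dixon's ratio, where chance alone flags about 1 in 20. Psma6 gave 42449.8 on array 2074 and 52128 to 62316 on the other 7. Psmg2, an assembly chaperone of the core, gave 1787 on array 2195 and 2810.4 to 3754 on the other 7.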

How the results depend on the processing

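Constitutive subunits at 2-fold were 1 of 30, 2 with quantile normalization, 13 by the full range, 0 over arrays 2194 to 2199 and 0 to 1 with 1 array left out. Their median log2 inner range of 0.58 became 0.89 by the full range and 0.39 to 0.57 with 1 array left out. Their score's inner range of 0.21 became 0.088 with the median of members and 0.076 to 0.23 with 1 array left out. Immunoproteasome subunits at 2-fold were 3 of 3, 1 over arrays 2194 to 2199 and 1 to 3 with 1 array left out. Their score's inner range of 0.98 became 1.87 by the full range and 0.61 to 0.97 with 1 array left out, and the difference of the scores, 0.84, became 1.79 and 0.73 to 0.84. The full range is wider and fewer arrays narrower by construction; for the other changes the cause was not tested. Regulators at 2-fold, 4, were 2 with quantile normalization or the mean of probe sets, 11 by the full range, 0 over arrays 2194 to 2199 and 0 to 4 with 1 array left out. Ubiquitin genes, 4, were 9, 0 and 1 to 3 under the last 3 of these. Interferon genes, 5, were 1 with genes required on all 8 arrays, 3 with the mean of probe sets, 18 by the full range, 3 over arrays 2194 to 2199 and 2 to 5 with 1 array left out. Constitutive genes with arrays 2074 and 2076 both below the others, 5, were 2 with the mean of probe sets and 5 to 7 with 1 of the other 6 arrays left out, and those above, 11, were 11 to 13. Of 918 values of the 54 named genes under alternatives, 825 moved by less than the gene's SD over arrays and 93 by more. Low signal limits Psmb9, Tap1, Ciita and Irf2. No paired analysis was possible because the labels give no groups and no replicate numbers.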
